A study of Mus musculus with 56 samples.

Results

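The genes analysed were 9 enzymes of the late steps of cholesterol synthesis, Lss, Cyp51, Tm7sf2, Msmo1, Nsdhl, Hsd17b7, Ebp, Sc5d and Dhcr7. They were chosen by name, as the enzymes from the closing of the sterol ring to the last reductions, and each was found as 1 of the 25415 genes listed. Liver RNA was sequenced from 56 female C57BL/6J mice aged 9 weeks, held under 12 h of light and 12 h of dark. After 7 days of entrainment with chow at all hours, the mice spent 7 days on daytime-restricted feeding (DRF, food in the light phase) or on nighttime-restricted feeding (NRF, food in the dark phase), which is the reference regimen. Livers were collected at ZT (zeitgeber time, counted in hours from lights on) 0, 4, 8, 12, 16, 20 and 24 from 4 animals per regimen and time, so that there were 14 groups and 28 libraries per regimen. The comparison asks whether these enzymes follow the time of food or the time of day when the meal is moved by 12 h.

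Cholesterol is made in the endoplasmic reticulum from acetyl-CoA by way of mevalonate, squalene and lanosterol, and the liver is one of its main sources in the body. When sterols in that membrane run low, the transcription factor SREBP-2 is carried to the Golgi by its escort SCAP, released there, and switches on most genes of the route, while INSIG proteins hold it back when sterols are plentiful. The late steps take methyl groups off lanosterol, move a double bond in the ring and reduce the remaining ones. Lss, the lanosterol synthase, closes the ring, Cyp51 takes off the methyl group at carbon 14, and Tm7sf2 reduces the double bond that is left there. Msmo1, Nsdhl and Hsd17b7 together remove the methyl groups at carbon 4, Ebp shifts the ring double bond, Sc5d adds one at carbon 5, and Dhcr7 makes cholesterol or desmosterol by reducing the one at carbon 7.

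The scaled count is the unit used throughout, a recovered whole count times a factor of its library, and ± stands for the SD over the 4 animals of a group (n = 4) unless an SE is named. The scaled counts of a library summed to between 887867 and 1115506, and 1 unit stood for 304 to 723 recovered counts, so the least abundant member still had 4636 recovered counts in its lowest library. Library totals of recovered counts lay between 323998501 and 730065983, above the depth stated for the study, so they are not called reads. Replicates of a group correlated between 0.966 and 0.990 across 13741 genes. All 5 hepatocyte markers were present in each library, with a summed scaled count of 102510 to 138984 under DRF and 97891 to 155354 under NRF. Adipocyte and pancreas markers stayed below a scaled count of 5, but each value rests on 1 gene of a list of 4 (Cidec and Cela1). The other 3 genes of each list (Adipoq, Plin1 and Lep, and Prss2, Cpa1 and Amy2a5) had no values among the rebuilt genes. In bulk liver, fewer cells of a type and less RNA per cell cannot be told apart.

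In 1 library, replicate 2 of NRF ZT8, the late enzymes were high together. It was the highest of its 4 animals for 9 of 9 members and for 10 of the 11 genes of the early mevalonate and squalene steps. No other library was highest for all 9 members, although 3 others, DRF ZT8 replicate 3, DRF ZT24 replicate 3 and NRF ZT0 replicate 3, were highest of their groups for 8 of 9. For the early genes, NRF ZT4 replicate 2 was also highest for 10 of 11, and DRF ZT0 replicate 2, DRF ZT12 replicate 1 and DRF ZT24 replicate 3 for 9. Cyp51 read 414 there against 128 to 200.2 in the other 3 animals, a ratio of 2.37 to their mean. The ratio was 2.54 for Msmo1, 2.36 for Lss, 2.15 for Nsdhl, 2.06 for Hsd17b7, 1.89 for Dhcr7, 1.51 for Sc5d, 1.34 for Tm7sf2 and 1.10 for Ebp. Across all genes this library correlated with its own group at a rank of 37 from the lowest among the 56, so its transcriptome as a whole was not among the most distant. Summed stellate and cholangiocyte markers read 890.5 and 29.1 in this library, above the other 3 animals of its group (762 to 785 and 22.4 to 25.2), and summed hepatocyte markers were the lowest of the 4 (108608, others 108737 to 124295). Kupffer and endothelial markers (455 and 348) lay between those of the other 3. All 5 sums were inside the range of the other NRF libraries, and their part in the member values was not tested. The fits without this library were added after the data were seen.

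**Figure D1:**
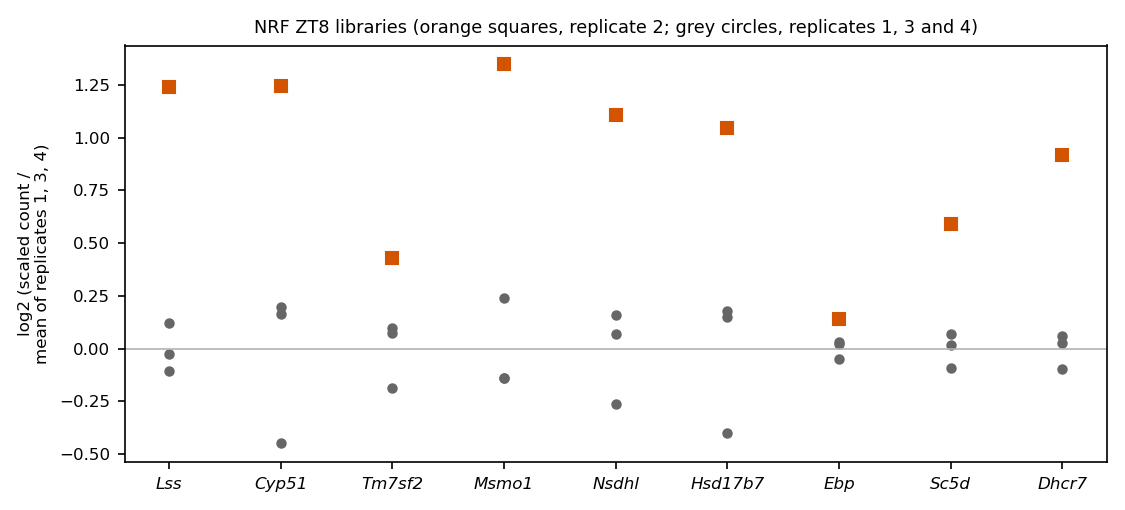
The 4 libraries of NRF ZT8 for each member, as the log2 ratio of the scaled count (vertical axis) to the mean of replicates 1, 3 and 4. Replicate 2, the orange square, lies above the other 3 animals for each of the 9 members, from a ratio of 1.10 for Ebp to 2.54 for Msmo1.

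The genes lie on 8 chromosomes (GENCODE vM21, GRCm38): Lss at chr10:76531588-76557138, Cyp51 at chr5:4081145-4104746, Tm7sf2 at chr19:6062821-6068373, Msmo1 at chr8:64718139-64733792, Nsdhl at chrX:72918557-72958514, Hsd17b7 at chr1:169949535-169969241, Ebp at chrX:8185329-8193512, Sc5d at chr9:42251595-42264256 and Dhcr7 at chr7:143823145-143848410. Of the exon bases of Tm7sf2, 12.1% are shared with Vps51 on the same strand, so part of its counts is uncertain. Opposite-strand genes cover 3.76% of the exon bases of Cyp51 (Akap9) and 3.53% of those of Lss (4930483K19Rik), and whether the counting used strand is not given in the sources used here. A search of the annotated transcripts found no other gene with at least 90% identity over at least 300 bases for 7 of the 9 members. Tm7sf2 matched the overlapping Vps51, and Sc5d matched a pseudogene, Gm31520, at 91.9% identity over 307 bases.

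The stretches just upstream of the start sites are shown for the 4 members that turned out rhythmic in both regimens (Lss, Sc5d, Dhcr7 and Ebp) and for Hsd17b7, which was called in neither. They come from the RefSeq promoter windows (GRCm38.p6, 250 bases before to 50 after each start, 32851 windows) and are written from 5′ to 3′ on the strand of the gene, at chr10:76531455-76531587 for Lss (+ strand), chr9:42264301-42264450 for Sc5d (- strand), chr7:143823017-143823144 for Dhcr7 (+ strand), chrX:8193513-8193662 for Ebp (- strand) and chr1:169969242-169969355 for Hsd17b7 (- strand). Capitals mark the letters CCAAT (NF-Y box), CACGTG (E-box) and GGGCGG (Sp1 box) on either strand.

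Lss: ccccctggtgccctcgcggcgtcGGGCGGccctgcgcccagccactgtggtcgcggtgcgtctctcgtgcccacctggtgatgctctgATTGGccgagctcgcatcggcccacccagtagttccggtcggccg
Sc5d: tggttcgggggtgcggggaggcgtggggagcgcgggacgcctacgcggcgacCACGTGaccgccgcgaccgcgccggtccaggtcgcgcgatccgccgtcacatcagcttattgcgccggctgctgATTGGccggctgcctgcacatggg
Dhcr7: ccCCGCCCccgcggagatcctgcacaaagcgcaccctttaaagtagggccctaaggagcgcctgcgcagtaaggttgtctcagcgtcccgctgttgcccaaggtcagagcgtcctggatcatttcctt
Ebp: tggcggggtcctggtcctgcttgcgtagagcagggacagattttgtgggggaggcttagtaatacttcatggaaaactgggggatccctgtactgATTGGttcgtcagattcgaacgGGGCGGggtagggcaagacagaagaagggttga
Hsd17b7: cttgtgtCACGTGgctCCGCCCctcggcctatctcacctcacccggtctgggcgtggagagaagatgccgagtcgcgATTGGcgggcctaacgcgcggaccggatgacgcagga

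All 9 members had a promoter window, with 3 windows for Dhcr7, which makes 11. CCAAT was found in 9 of the 11 windows, which cover all 9 members, against 37.4% of all promoter windows, and GGGCGG in 10 of the 11 against 35.7%. The first 2 Dhcr7 windows, the shown one among them, hold no CCAAT, while the third window does. CACGTG lay 98 bases before the start of Sc5d (position -98) and at -143 in Hsd17b7, as well as in the second Dhcr7 window, against 7.15% of all windows. TCACNCCAC, the core of a sterol regulatory element, was in 0 of the 11 windows and in 1.24% of all windows. These are matches of letters on both strands, and they say only what stands in these windows.

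Under DRF, 7 of the 9 members were rhythmic over 24 h, namely Lss, Cyp51, Tm7sf2, Nsdhl, Ebp, Sc5d and Dhcr7, against 54.0% of the 19284 genes tested. Under NRF, 4 members were rhythmic (Lss, Ebp, Sc5d and Dhcr7), against 54.8% of all genes. The same 4 were dual-oscillating, that is, called in both regimens, as were 35.5% of all genes. Of these 4, 3 were phase-inverted, with a fitted shift of 8 to 12 h (Lss, Sc5d and Dhcr7). Ebp lay between the phase-locked (0 to 4 h) and the phase-inverted class. Of the 6843 dual-oscillating genes, 3344 were phase-inverted, which is 17.3% of all genes tested. With only 4 dual-oscillating members, the 3 that were phase-inverted are a description. Rhythms were tested with an exact rank test against cosine templates combined with a cosinor F test, and the threshold was an adjusted p of 0.05. Both tests use the same values, while their combination takes them as independent. The p-values of rhythms within a regimen can therefore be too small, for members and all genes alike. Msmo1 and Hsd17b7 did not pass in either regimen. The shares of members called under NRF and in both regimens lie near those of all genes, so they are no result about these enzymes, and with 9 members the share under DRF is a description.

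**Figure D2:**
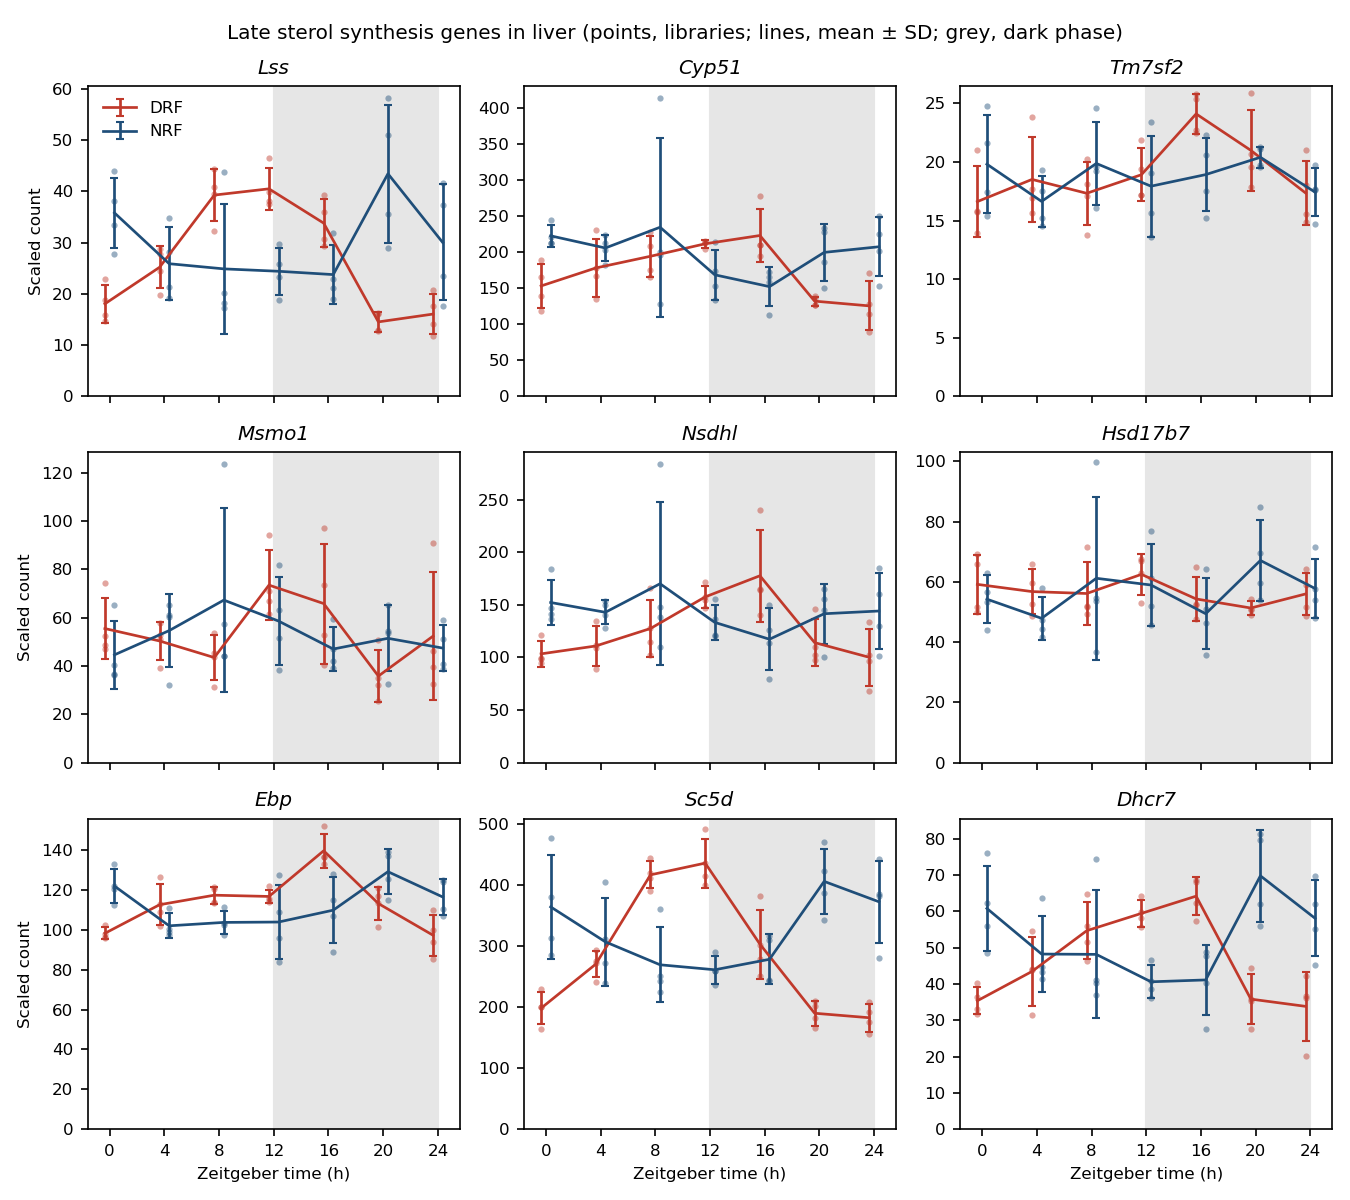
Scaled counts of the 9 members (vertical axis, from 0) by ZT in hours (horizontal axis) under DRF (red) and NRF (blue). Points are libraries, lines join group means, bars are ± SD of 4 animals and grey is the dark phase. Sc5d was highest under DRF at ZT12 (437) and under NRF at ZT20 (407), and the wide blue bars at ZT8 come with replicate 2.

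Lss, which closes the sterol ring, was high around the end of the light phase under DRF and late in the dark phase under NRF. Under DRF its 4 animals read 46.5, 38.2, 39.8 and 37.4 at ZT12, and 16.2, 13.0, 16.3 and 12.7 at ZT20. All 4 values at ZT12 lay above all 4 at ZT20, and the ratio of the means was 2.79. These are the times of the highest and the lowest DRF group mean. Here and for the members below, most times set side by side were picked from the group means as extremes. A gap between such groups is therefore partly built in and is a description, and the share of all genes with such a gap was not counted. Under NRF the animals read 35.7, 58.2, 28.9 and 50.9 at ZT20 and 21.2, 23.0, 18.9 and 31.9 at ZT16, 1.83 times lower in the mean, with an overlap between the groups. The fitted peak was at ZT10.7 (SE 0.337 h) under DRF and at ZT21.4 (SE 1.39 h) under NRF, so the shift was 10.7 h (SE 1.43 h). The rhythm was called with an adjusted p of 6.11e-16 under DRF and 0.0140 under NRF, and the difference between the regimens with an adjusted p of 3.55e-09 (limma). Without replicate 2 of NRF ZT8, the adjusted p under NRF was 5.60e-04 and the shift 10.4 h, whereas the NRF call was lost when all libraries of replicate number 1, 3 or 4, or those of ZT0, were left out (adjusted p from 0.0946 to 0.339).

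Sc5d, the desaturase that adds the double bond at carbon 5, had the most significant rhythm of the 9 under DRF (adjusted p = 1.71e-19). The DRF animals read 493, 437, 401 and 415 at ZT12 and 445, 412, 391 and 420.0 at ZT8, and then 211, 165, 183 and 202 at ZT20 and 155, 175, 192 and 208 at ZT24. No animal of the latter groups came near those of the former, and the highest group mean was 2.39 times the lowest. Under NRF they read 387, 424, 344 and 471 at ZT20 and 236, 259.6, 259 and 291 at ZT12, without overlap and with a ratio of 1.55. Fitted peaks were at ZT10.4 (SE 0.261 h) and ZT22.2 (SE 0.933 h), putting the shift at 11.8 h (SE 0.969 h), the one nearest to 12 h among the 9. Both the NRF rhythm (adjusted p = 3.42e-05) and the difference between regimens (adjusted p = 6.72e-15, limma) were called, and both calls held without replicate 2 of NRF ZT8 (adjusted p of 3.30e-06 and 7.09e-16, shift 11.6 h).

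Dhcr7, the reductase of the double bond at carbon 7, read 68.3, 57.5, 62.4 and 68.8 at ZT16 under DRF and 20.3, 36.1, 42.1 and 36.8 at ZT24, with no overlap and a ratio of means of 1.90. The NRF animals read 56.1, 81.4, 62.2 and 79.7 at ZT20 and 40.9, 36.2, 46.7 and 38.6 at ZT12, again without overlap (ratio 1.72). Its peaks were fitted at ZT12.1 (SE 0.582 h) and ZT22.5 (SE 1.18 h), 10.4 h apart (SE 1.32 h). Calls were made for DRF (adjusted p = 7.47e-09), for NRF (adjusted p = 2.08e-04) and for the rhythm difference (adjusted p = 1.04e-07, limma). Without replicate 2 of NRF ZT8, the adjusted p under NRF was 9.89e-07 and the shift 9.87 h.

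Ebp, the isomerase that shifts the ring double bond, cycled in both regimens with a smaller swing. It read 137, 133, 137 and 153 at ZT16 under DRF, and all 4 animals of ZT24 lay lower, between 85.5 and 110.2. Under NRF it read 115, 137, 126 and 139 at ZT20, and the animals of ZT4 lay between 97.6 and 111, again without overlap. The ratios of the highest to the lowest group mean were 1.44 and 1.27. Peaks fell at ZT13.8 (SE 0.786 h) under DRF and ZT20.7 (SE 0.963 h) under NRF, so the shift was 6.87 h (SE 1.24 h). Adjusted p was 5.32e-07 under DRF, 5.02e-04 under NRF and 4.97e-05 for the difference (limma), and under NRF it was 2.12e-04 without replicate 2 of ZT8, with a shift of 6.81 h.

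Cyp51, the lanosterol demethylase, was called under DRF (adjusted p = 6.26e-06) but just missed the threshold under NRF (adjusted p = 0.0607). Its DRF animals read 216, 214, 204 and 212 at ZT12 and 210.0, 194, 209.9 and 278 at ZT16, all above the 136, 126, 138 and 127 of ZT20. Under NRF it read 221, 212, 244 and 213 at ZT0 and 112, 158, 173 and 165 at ZT16. The ZT0 animals all lay above the ZT16 animals, but the highest NRF mean was that of ZT8 (234 ± 124), which holds the 414 of replicate 2. The difference between regimens was called (adjusted p = 1.58e-04, limma). Leaving out that library gave an NRF rhythm with an adjusted p of 0.00193 and moved the NRF peak from ZT3.58 (SE 1.71 h) to ZT1.12 (SE 1.17 h), and the shift from 7.96 h (SE 1.91 h) to 10.4 h (SE 1.44 h). The NRF call also changed when any 1 of 6 other libraries was left out, NRF ZT4 replicate 1, ZT8 replicate 3, ZT12 replicate 1, ZT20 replicates 2 and 4 and ZT24 replicate 2, with adjusted p between 0.0206 and 0.04125.

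Nsdhl, the dehydrogenase of the demethylation at carbon 4, gave a call under DRF (adjusted p = 1.72e-06) and none under NRF (adjusted p = 0.767). Under DRF it read 164, 165, 140.4 and 240.5 at ZT16 and 68.0, 103, 133 and 96.4 at ZT24, without overlap. The NRF group means ran from 117 ± 29.4 at ZT16 to 170.0 ± 77.7 at ZT8, and without replicate 2 of ZT8 the highest was 152 ± 21.8 at ZT0. The 2 regimens differed in rhythm (adjusted p = 3.90e-04, limma). The fitted shift, which rests on an NRF rhythm that was not called, was 8.88 h (SE 2.31 h), and 11.8 h (SE 2.35 h) without that library. Tm7sf2, the reductase at carbon 14, was called under DRF (adjusted p = 0.00315), with 22.5, 22.7, 25.3 and 25.8 at ZT16 and 15.7, 21.0, 15.8 and 13.9 at ZT0, and it was not called under NRF (adjusted p = 1). The DRF call of Tm7sf2 was lost without the libraries of replicate number 1 (adjusted p = 0.0568). With the values as deposited, its NRF rhythm was called by the same combined test (adjusted p = 0.0292). Its rhythm did not pass the test of the difference (adjusted p = 0.294).

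Msmo1 and Hsd17b7, the methyl oxidase and the reductase of the removal of methyl groups at carbon 4, passed no rhythm test. Msmo1 ranged from 25.4 to 96.9 under DRF and from 32.1 to 123 under NRF, and its animals within a group spread widely, as in DRF ZT24 with 39.6, 32.6, 91.0 and 46.3. Its fitted amplitude on the log2 scale was 0.20 under DRF and 0.19 under NRF, near that of Ebp (0.18 and 0.16), with adjusted p of 0.573 and 0.662. Hsd17b7 had the smallest fitted amplitude under DRF, 0.06 on the log2 scale, where its group means lay between 51.3 and 62.5. The adjusted p was 0.986 under DRF and 1 under NRF. Testing one regimen against the other gave an adjusted p of 0.743 for Msmo1 and 0.613 for Hsd17b7 (limma), which does not show that their profiles were the same.

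**Figure D3:**
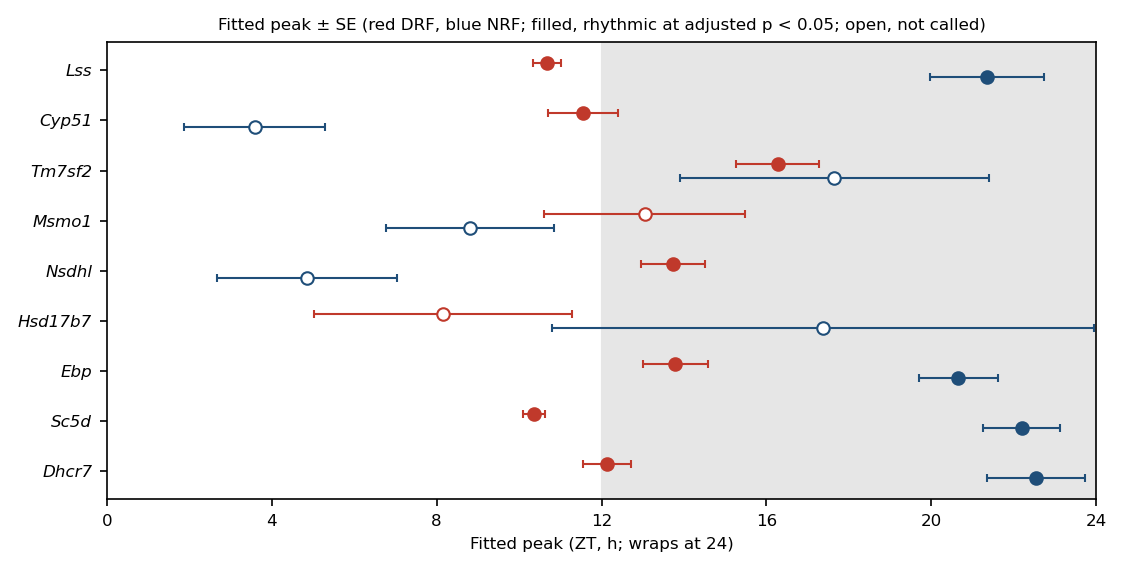
Fitted peak times (horizontal axis, ZT in hours, wrapping at 24) of the 9 members with SE, under DRF (red) and NRF (blue). Filled symbols are rhythms called at an adjusted p below 0.05, open symbols are not called, and grey is the dark phase. The called DRF peaks lie from ZT10.4 (Sc5d) to ZT16.3 (Tm7sf2) and the called NRF peaks from ZT20.7 (Ebp) to ZT22.5 (Dhcr7).

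The rhythm differed between the regimens for 6 of the 9 members (Lss, Cyp51, Nsdhl, Ebp, Sc5d and Dhcr7), against 48.5% of all genes, and for the same 6 without replicate 2 of NRF ZT8. With 9 members, this count is a description. The fitted shift was between 8 and 12 h for 5 members, and the share of all genes with such a fit was not counted. Among the 5 were Nsdhl and Hsd17b7, whose NRF rhythms were not called. Hsd17b7 was called in neither regimen, and its shift of 9.22 h (SE 7.28 h) gives no phase. Over the 4 dual-oscillating members the shift ran from 6.87 h to 11.8 h, against a median of 7.86 h over the 6843 dual-oscillating genes. No member differed in mesor, the rhythm-adjusted mean, where 5.63% of all genes were higher and 3.43% lower under DRF. The mesor differences ran from -0.12 for Nsdhl (SE 0.08) to 0.05 for Ebp (SE 0.04) on the log2 scale, with adjusted p of 0.276 or more (limma). At an approximate unadjusted p of 0.05, from the estimate and its SE, 0 of 9 passed, and 0 of 9 were called under each of the alternatives tried. Amplitude was called larger under DRF for 2 members, against 2.30% of all genes, and smaller for 0, against 6.12%. For Sc5d the amplitude was 0.67 under DRF and 0.30 under NRF, a log2 difference of 0.37 (SE 0.08, adjusted p = 0.00119), and 0.33 (adjusted p = 0.00346) without replicate 2 of NRF ZT8. The Sc5d call was lost with the values as deposited (adjusted p = 0.419). The difference there, 0.029, is on the log2 of values that are already log-compressed, so its size cannot be set beside 0.37. For Lss the amplitude was 0.74 and 0.34, a difference of 0.40 (SE 0.13, adjusted p = 0.0406), and this call was lost in 18 of the 56 fits that each left out 1 library, with adjusted p up to 0.111, the value without replicate 2 of NRF ZT8, and with the values as deposited (adjusted p = 0.187). In percent of the mesor, the amplitude of scaled counts was 48.0% under DRF and 25.7% under NRF for Lss, 44.3% and 21.9% for Sc5d, and 30.2% and 22.1% for Dhcr7.

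At matched clock times, the members that differed were lower under DRF from ZT20 to ZT0 and higher from ZT8 to ZT16. Of the 63 pairs of member and ZT, 8 were higher and 13 lower under DRF at an adjusted p of 0.05 (limma). Over all genes, 10.5% of such pairs were higher and 9.72% lower. The count of higher pairs lies near that share and is no result about these enzymes, and the count of lower pairs is a description. At ZT20 Lss, Cyp51, Sc5d and Dhcr7 were lower under DRF, where 7.77% of all genes were lower and 10.5% higher. At ZT24 those 4 and Ebp were lower (all genes, 9.16% lower and 9.40% higher), and at ZT0 Lss, Ebp, Sc5d and Dhcr7 were lower (all genes, 10.6% lower and 10.5% higher). At ZT4, in the light phase, 0 of 9 differed in either direction, while 14.3% of all genes were higher and 12.0% lower. At an approximate unadjusted p of 0.05, from the limma estimate and its SE, 0 of 9 passed either, with log2 differences from -0.37 to 0.24. Lss and Sc5d were higher under DRF at ZT8 (all genes, 7.77% higher and 9.58% lower), Lss, Sc5d and Dhcr7 at ZT12 (9.43% and 10.9%), and Nsdhl, Ebp and Dhcr7 at ZT16 (11.9% and 8.09%). Over the 9 members the median log2 difference ran from -0.55 at ZT0 to 0.42 at ZT16, and that over all genes stayed within 0.02 of 0.

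Lss at ZT20 had the largest difference of these pairs, 14.5 ± 1.96 under DRF and 43.4 ± 13.5 under NRF, a log2 difference of -1.47 (SE 0.23, adjusted p = 5.17e-06). Sc5d read 190.1 ± 20.4 and 407 ± 54.0 at that time (log2 difference -1.09, SE 0.15, adjusted p = 4.37e-07), and Dhcr7 35.8 ± 6.80 and 69.8 ± 12.6 (log2 difference -0.94, SE 0.19, adjusted p = 2.96e-04). In none of the 3 did the DRF animals reach the NRF animals, nor did they for Cyp51 at that time. The groups of ZT20 overlapped for Tm7sf2, Msmo1, Nsdhl, Hsd17b7 and Ebp, and the share of all genes without overlap was not counted. At ZT12, Sc5d was 437 ± 40.1 under DRF and 261 ± 22.7 under NRF (log2 difference 0.74, SE 0.15, adjusted p = 2.90e-04), also without overlap. Of the 21 calls, 11 were kept in every fit that left out 1 library, and 8 were kept under those and under all other settings tried as well. The 8 were Lss at ZT0 and ZT20, Sc5d at ZT0, ZT8, ZT12, ZT20 and ZT24, and Dhcr7 at ZT20. The call of Lss at ZT8 (log2 difference 0.74, adjusted p = 0.0227) had a larger difference without replicate 2 of NRF ZT8 (1.04, adjusted p = 8.79e-04), as had that of Sc5d (0.65, and 0.80 with an adjusted p of 2.09e-04 without it), while that of Cyp51 at ZT20 (adjusted p = 0.0486) was lost in 39 of the 56 fits.

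The calls that a single library ended were the following. Lss lost the call at ZT8 without DRF ZT8 replicate 3 or NRF ZT8 replicate 1, 3 or 4 (adjusted p from 0.0686 to 0.101), at ZT12 without DRF replicate 1 or NRF replicate 2 of that time (0.0686 and 0.0940), and at ZT24 without DRF replicate 1 or NRF replicate 3 or 4 (0.0567 to 0.0725). Dhcr7 lost that at ZT12 (log2 difference 0.54, adjusted p = 0.0407) without any 1 library of that time other than NRF replicate 3 (0.0535 to 0.1102), and that at ZT16 (0.66, adjusted p = 0.0122) without NRF ZT16 replicate 1 (0.0934). Nsdhl at ZT16 (0.60, adjusted p = 0.0372) lost it without DRF replicate 1, 2 or 4 or NRF replicate 1 or 4 (0.0529 to 0.191), and Cyp51 at ZT24 (-0.74, adjusted p = 0.00875) without DRF replicate 1 (0.0637). Ebp lost the call at ZT0 (-0.31, adjusted p = 0.0110) without NRF replicate 3 (0.0545), and at ZT24 (-0.26, adjusted p = 0.0374) without DRF replicate 1 or 2 or NRF replicate 1 or 3 (0.0866 to 0.173). In the other direction, Cyp51 and Nsdhl missed the threshold at ZT0 (log2 difference -0.56 and -0.55, adjusted p = 0.0506 and 0.0564) and passed it in 14 and 6 of the 56 fits, as did Cyp51 at ZT16 in 7, Nsdhl at ZT24 in 3 and Ebp at ZT12 in 1.

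**Figure D4:**
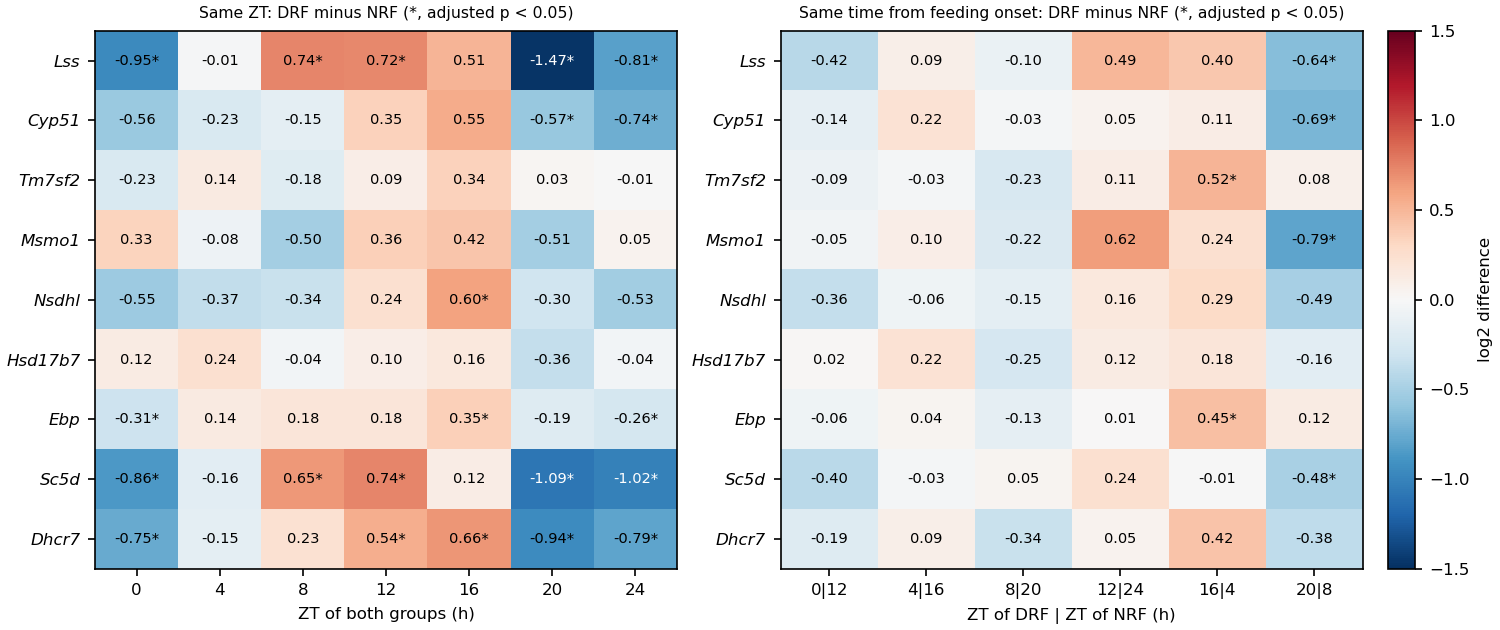
Log2 difference, DRF minus NRF, for each member (rows) at the same ZT (left, columns are the ZT of both groups in hours) and at the same time from the onset of feeding (right, columns are the ZT of DRF and of NRF). Red is higher and blue lower under DRF, and an asterisk marks an adjusted p below 0.05. On the left 21 of 63 pairs are marked (over all genes, 10.5% of pairs higher and 9.72% lower), and on the right 6 of 54 (7.98% and 6.52%).

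When DRF groups were set against the NRF groups at the same time from the onset of feeding, 12 h away on the clock, 2 of 54 pairs were higher and 4 lower under DRF. Over all genes, 7.98% of such pairs were higher and 6.52% lower, against 10.5% and 9.72% at matched clock times. The times were counted from the start of the phase with food. In 4 of the 6 such comparisons 0 of 9 members differed in either direction, with log2 differences from -0.42 to 0.62. These were DRF ZT0 against NRF ZT12 (all genes, 1.86% higher and 2.02% lower), DRF ZT4 against NRF ZT16 (12.1% and 7.40%), DRF ZT8 against NRF ZT20 (9.28% and 7.01%) and DRF ZT12 against NRF ZT24 (1.24% and 1.09%). At an approximate unadjusted p of 0.05, from the limma estimate and its SE, Sc5d passed in the first of these (log2 difference -0.40, SE 0.15, and -0.52 with an adjusted p of 0.0170 when DRF ZT24 stood in for DRF ZT0) and Lss and Msmo1 in the last (0.49, SE 0.23, and 0.62, SE 0.29). At the ZT16 of DRF against the ZT4 of NRF, Ebp was higher under DRF (139.9 ± 8.59 and 102 ± 6.21, log2 difference 0.45, SE 0.09, adjusted p = 3.06e-04) and so was Tm7sf2 (24.1 ± 1.73 and 16.6 ± 2.21, log2 difference 0.52, SE 0.15, adjusted p = 0.0105), where 12.7% of all genes were higher and 10.2% lower. Both kept the call in every fit without 1 library, but Tm7sf2 lost it without all libraries of replicate number 1 or 4 (adjusted p of 0.0527 and 0.0563). At the ZT20 of DRF against the ZT8 of NRF, Lss, Cyp51, Msmo1 and Sc5d were lower under DRF, where 11.4% of all genes were lower and 10.7% higher. All 4 of these calls were lost without replicate 2 of NRF ZT8, with adjusted p of 0.322, 0.171, 0.291 and 0.128 and log2 differences between -0.46 and -0.34, and all 4 with the values as deposited (adjusted p from 0.176 to 0.742). The calls of Lss and Msmo1 were also lost without DRF ZT20 replicate 2, 3 or 4, that of Msmo1 without NRF ZT8 replicate 4, and that of Sc5d without DRF ZT20 replicate 2 (adjusted p of 0.0548 or more).

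The whole fitted profile can be compared in the same way, by testing the DRF rhythm against the NRF rhythm moved by 12 h. The profiles then differed for 4 members (Lss, Tm7sf2, Ebp and Sc5d). This count lies near the 44.0% of all genes and is no result about these enzymes. The test responds to a difference in amplitude as well as in timing and does not tell them apart. Lss and Sc5d were the 2 members whose amplitude was called larger under DRF. Adjusted p was 0.0161 for Lss, 0.0345 for Tm7sf2, 0.0127 for Ebp and 5.05e-04 for Sc5d (limma), and without replicate 2 of NRF ZT8 it was 0.0239, 0.0151, 0.00903 and 0.00110. Without the libraries of 1 replicate number, or without ZT24, the count fell to between 2 and 3 members. Ebp lost the call without replicate number 2, 3 or 4 (adjusted p of 0.0968, 0.0684 and 0.105), and Lss without replicate number 1 (0.186) or without ZT24 (0.0881). The Tm7sf2 call was lost without any 1 of 7 libraries (DRF ZT16 replicates 3 and 4, DRF ZT20 replicate 3, NRF ZT4 replicates 1 and 2, and NRF ZT16 replicates 2 and 4), with adjusted p up to 0.0643. Dhcr7 (adjusted p = 0.325), Cyp51 (0.0984), Msmo1 (0.142), Nsdhl (0.0697) and Hsd17b7 (0.973) did not pass, which does not show that their profiles were equal after the move. Nsdhl passed without DRF ZT24 replicate 3, NRF ZT0 replicate 3, NRF ZT8 replicate 3, NRF ZT16 replicate 1 or NRF ZT24 replicate 3 (adjusted p between 0.0306 and 0.0496 in these fits), and Cyp51 without NRF ZT8 replicate 3 (0.0358). With the values as deposited, Nsdhl and Dhcr7 passed (adjusted p of 0.0115 and 0.0348, limma).

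ZT0 and ZT24 are the same time of day 24 h apart. No member differed between them (limma), under DRF (2.03% of all genes higher and 2.48% lower at ZT24) or under NRF (3.24% and 7.76%), with log2 differences from -0.30 to 0.11. At an approximate unadjusted p of 0.05, from the estimate and its SE, 0 of 9 passed in either regimen. The libraries of these times differed in how their values ran with exon length. Spearman's rho between log exon length and the deviation of a library from the mean over all libraries, across 13741 genes, lay between -0.32 and 0.03 at ZT0 and between 0.06 and 0.26 at ZT24. The part of this in the member values was not tested beyond the alternative that removed the trend, under which 7 members were rhythmic under DRF and 5 under NRF, with Cyp51 added at an adjusted p of 0.0471.

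Levels of different genes were compared only per kilobase of exon. The mean over the 56 libraries was 62.5 scaled counts per kb for Sc5d, 49.0 for Ebp, 47.4 for Nsdhl, 42.2 for Cyp51, 11.1 for Hsd17b7, 8.69 for Msmo1, 8.52 for Dhcr7, 3.38 for Tm7sf2 and 2.62 for Lss. Cyp51 lay above Hsd17b7 in 56 of 56 libraries, and Dhcr7 above Tm7sf2 in 56 of 56. Other neighbours traded places, with Sc5d above Ebp in 42 libraries, Ebp above Nsdhl in 35, Nsdhl above Cyp51 in 46, Hsd17b7 above Msmo1 in 44, Msmo1 above Dhcr7 in 31 and Tm7sf2 above Lss in 44. These levels depend on the exon length used, which for Tm7sf2 was found from the values (5593 bases, against 4403 annotated).

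The members also varied together among animals of the same group. After each group mean was subtracted on the log2 scale, each member was compared with the mean of the other 8 over the 56 libraries. The members were chosen as 1 pathway and share each library's scaling, so the 9 relations are a description and no p is given for them. Pearson's r was 0.86 for Dhcr7, 0.82 for Nsdhl, 0.82 for Lss, 0.82 for Cyp51, 0.68 for Hsd17b7, 0.67 for Ebp, 0.60 for Sc5d, 0.53 for Tm7sf2 and 0.45 for Msmo1. The median of the 13732 other genes against the same means was between 0.07 and 0.08, and between 0.0146% and 3.43% of them had a higher r than the member in question. Spearman's rho ran from 0.37 for Msmo1 to 0.85 for Dhcr7.

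Hsd17b7, which was called rhythmic in neither regimen, kept r = 0.58 when the 2 libraries with the most extreme mean of the other members were left out, and r = 0.56 without replicate 2 of NRF ZT8. For Msmo1 the relation rested on few libraries. Without the 2 farthest r was 0.29, and without replicate 2 of NRF ZT8 it was 0.31, a value that 14.8% of the other genes exceeded. The other 8 members had r between 0.46 and 0.83 without their 2 farthest libraries. The labels name no batch, so no value within batches can be given.

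**Figure D5:**
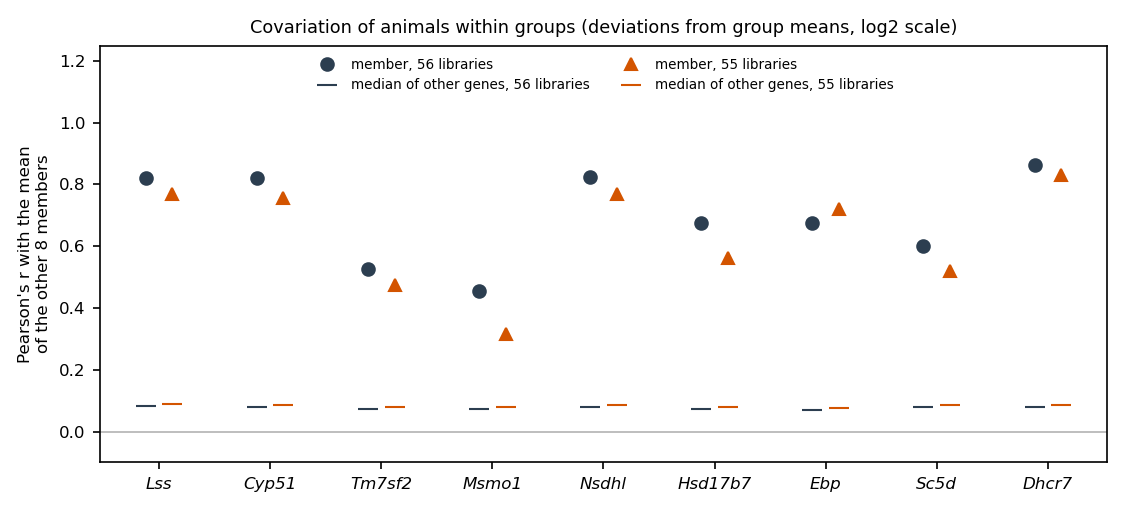
Pearson's r (vertical axis) between each member and the mean of the other 8 members, over deviations from group means on the log2 scale. Circles use 56 libraries, triangles 55 (without replicate 2 of NRF ZT8), and dashes are the median of 13732 other genes. Dhcr7 is highest with 0.86, and Msmo1 falls from 0.45 to 0.31.

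Other genes of cholesterol metabolism were counted from lists chosen with earlier results of these data known. Of the 11 genes of the early mevalonate and squalene steps, 10 were rhythmic under DRF (54.0% of all genes), 9 under NRF (54.8%) and 8 in both (35.5%). Between regimens, 10 of the 11 differed in rhythm (48.5%). Of the 8 rhythmic in both, 6 were phase-inverted, as were 3344 of the 6843 dual-oscillating genes (17.3% of all genes). The median shift of those 8 was 9.49 h. Pmvk, the phosphomevalonate kinase, peaked at ZT9.76 and ZT23.0, Mvd, which makes isopentenyl diphosphate, at ZT8.47 and ZT23.0, Fdps, the farnesyl diphosphate synthase, at ZT11.9 and ZT23.7, and Acat2, the cytosolic thiolase, at ZT13.2 and ZT22.6, under DRF and NRF respectively. Adjusted p of their difference in rhythm lay between 4.02e-11 and 1.34e-07 (limma). Ggps1, which makes geranylgeranyl diphosphate, a branch away from sterols, did not pass (adjusted p = 0.0717). Against the NRF profile moved by 12 h, the adjusted p was 0.419 for Fdps, 0.0740 for Acat2, 0.0102 for Mvd and 0.0391 for Pmvk, and 6 of the 11 genes passed that test, near the 44.0% of all genes.

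Of the list of other late-step genes, 5 of 6 were tested, since Faxdc2 fell below the filter on low values, and all 5 differed in rhythm, as did 48.5% of all genes. Lbr, the lamin B receptor, which carries the same reductase activity as Tm7sf2, peaked at ZT11.1 under DRF and ZT18.1 under NRF (adjusted p of the difference 8.50e-08, limma). Erg28, a scaffold of the demethylation complex, was called under NRF only (adjusted p = 5.35e-10, against 0.802 under DRF), and its smaller amplitude under DRF was itself called (adjusted p = 0.00227). Hsd3b7, an enzyme of bile acid synthesis held in that list, peaked at ZT16.1 and ZT4.14. Among 10 control genes, 9 differed in rhythm (all genes, 48.5%). Srebf1 peaked at ZT6.50 and ZT18.1, Scap at ZT18.3 and ZT7.48, Insig2 at ZT15.7 and ZT23.5 and Mylip, a ligase that marks the LDL receptor for degradation, at ZT22.2 and ZT9.54, with adjusted p of 8.91e-14 or less (limma), whereas Stard4, a sterol carrier, gave 0.736.

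All 6 genes of sterol use and export differed in rhythm (all genes, 48.5%). Soat2, which esterifies cholesterol, peaked at ZT22.9 under DRF and ZT9.15 under NRF, and Abcg5 and Abcg8, the export pair into bile, at ZT1.77 and ZT0.33 under DRF and at ZT10.7 and ZT9.28 under NRF. Cyp7a1, the rate-limiting enzyme of bile acid synthesis, was called under NRF (peak at ZT15.9, adjusted p = 4.51e-08) and not under DRF (adjusted p = 0.172). Of these 6 genes, 5 had a smaller amplitude under DRF (all genes, 6.12%) and 1 a larger one (2.30%).

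The genes most like the members were those with the highest Pearson's r, over the 14 group means of log2 values, with the mean z-score of the 9 members, among 13732 genes. They were Gm3571 (0.95), Fdps (0.94), Ttr (0.89), Idi1 (0.89), Acat2 (0.89), Gm13502 (0.88), Copz1 (0.87), Ralgps1 (0.86), Ptprj (0.86) and Rcbtb2 (0.86). Gm3571 is a processed pseudogene with 98.9% identity to Fdps over 1062 bases, and Gm13502 one with 100% identity to Idi1 over 684 bases, so how the counting split their reads is uncertain. Within the set, r with the mean of the other 8 members over the same 14 means was 0.94 for Dhcr7, 0.87 for Lss, 0.83 for Cyp51, 0.82 for Nsdhl, 0.78 for Sc5d and 0.72 for Ebp, and lower for Tm7sf2 (0.39), Msmo1 (0.37) and Hsd17b7 (0.33). Group means share libraries and scaling, and these values are given without a test.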

How the data were processed

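RNA-seq of 56 mouse livers, in 14 groups of 4, was analysed from the gene table. The authors deposited values named TPM, which are not linear in counts and are treated as a score. Each value times its exon length equals a·ln(1 + f·k), where k is a whole count and a and f belong to the library, and f·k is the scaled count used here. In held-out genes, between 96.4% and 98.9% of values came out within 0.05 of a whole number. The count is recovered, so no count model was used, and animals give the error. The submitters' processing notes name CASAVA 1.8, featureCounts 1.5.0-p3, mm10 and GRCm38.p6; the aligner is not given in the sources used here. Their protocol describes ribosomal RNA depletion and strand-specific paired reads, while the molecule field says polyA RNA. The transcript and circRNA tables were not used.

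Of 25410 rebuilt genes, 19284 with a mean scaled count of at least 0.1 were tested, with Benjamini-Hochberg adjustment over all of them. Rhythms within a regimen combined an exact rank test against 12 cosine templates with a cosinor F test by Fisher's method. That method takes the 2 tests as independent, although they use the same values, so the combined p can be too small. Differences used limma 3.58.1 (R 4.3.3) on log2(scaled count + 1), which understates changes of low genes. The fixed design assumed this linear scale, and the tests of regimen differences and the calls under DRF were checked on simulated data. Every simulated gene carried a fitted or set rhythm, so false calls of a rhythm within a regimen were not checked. Covariation within groups, the search for near-identical transcripts (BLAST+ 2.17.0) and the fits without each single library were added after the data were seen. Members and lists were chosen with earlier results of these data known. The text names all 9 members, up to 4 genes of each other list by the smallest p of the rhythm difference, plus those past no threshold, and the 10 most alike genes; 1 gene that this rule names is not reported here. The labels say no more of the 4 samples per group than their number, and p-values measure the spread between these samples. Alternatives were another pseudocount (0.25), other filters on low values, the deposited values, median-of-ratios scaling, removal of the exon-length trend, a replicate block, other rhythm tests, and leaving out replicates or times.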

Additional observations from a re-analysis of the deposited data

Results flagged for a closer look

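Each of the 126 groups of 4 values (9 members by 14 groups) was checked for 1 animal far from the other 3, by the gap to its nearest neighbour over the range of the group, at the 5% level of Dixon's test. Chance flags about 1 in 20 such groups, and 8 were found. Of these, 3 belong to replicate 2 of NRF ZT8, which was highest for Lss (43.8, others 17.2 to 20.2, gap ratio 0.888), Msmo1 (123, others 44.1 to 57.4, 0.833) and Dhcr7 (74.5, others 36.9 to 41.1, 0.887). Msmo1 was high in NRF ZT0 replicate 4 (65.4, others 36.1 to 40.5, gap ratio 0.850) and low in NRF ZT4 replicate 1 (32.1, others 60.2 to 65.3, 0.848). Dhcr7 was high in NRF ZT4 replicate 2 (63.7, others 41.4 to 44.7, gap ratio 0.851). Under DRF, Nsdhl was high in ZT0 replicate 2 (121, others 94.8 to 99.3, gap ratio 0.832) and Hsd17b7 in ZT8 replicate 3 (71.5, others 49.3 to 52.2, 0.870).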

How the results depend on the processing

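The rhythm difference was called for 6 members under all alternatives tried, leaving out single libraries among them. Set against 48.5% of all genes, this count stays a description. Where other counts moved past 1.5 times, the cause was not tested. Without a low-value filter, 1 member (against 2) was called in amplitude, Lss being lost, and 2 feeding-aligned pairs (against 4) were lower under DRF. With the values as deposited, both amplitude calls were lost and 1, Nsdhl, was gained (adjusted p = 0.0433), and all 4 lower aligned pairs were lost and 2 gained (Tm7sf2 and Ebp, DRF ZT8 against NRF ZT20), with 4 aligned pairs higher (against 2), and 3 members were higher at ZT24 than at ZT0 under NRF (against 0), among them Ebp, whose log2 difference turned from lower to higher (0.089, adjusted p = 0.00901). Log2 differences in that setting are of values already log-compressed, so their sizes are not comparable with those of scaled counts. Median-of-ratios scaling left 2 aligned pairs lower. Without the ZT24 libraries 2 members (against 4) differed in the feeding-aligned rhythm and 1 in amplitude. Without the ZT0 libraries 7 same-ZT pairs (against 13) were lower, since 4 of the 13 are pairs at ZT0 itself, and Cyp51 at ZT20 and Ebp at ZT24 lost their calls (adjusted p of 0.0621 and 0.0522). In the aligned comparisons ZT24 then stood in for ZT0, and ZT0 for ZT24 where that time was left out.

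Leaving out 1 replicate number in turn gave 6 to 7 rhythmic members under DRF, 3 to 5 under NRF, 1 called in amplitude, 2 to 3 in the feeding-aligned rhythm and 3 to 6 with a shift of 8 to 12 h. Same-ZT pairs were 2 to 8 higher and 9 to 13 lower, and aligned pairs 1 to 4 higher and 0 to 4 lower. Of all genes, 3.11% to 4.53% were then called in amplitude (against 8.42%) and 4.12% to 7.23% in mesor (against 9.06%). Leaving out 1 library in turn gave 1 to 2 members in amplitude, 3 to 6 in the feeding-aligned rhythm, 4 to 6 shifts of 8 to 12 h, 6 to 9 and 11 to 16 same-ZT pairs higher and lower, and 2 to 3 and 0 to 5 aligned pairs, and of all genes 7.63% to 9.18% in amplitude and 7.56% to 9.75% in mesor. Among results of single members, 115 of 2403 crossed the threshold under the alternatives fixed at the outset, 84 to not called and 31 to called. Shifts moved by more than their SE with the deposited values (Cyp51 10.2 h, Hsd17b7 1.10 h, Ebp 3.58 h, Sc5d 9.15 h and Dhcr7 8.42 h) and without replicate number 1 (Ebp 5.53 h), 2 (Cyp51 10.1 h and Nsdhl 11.5 h) or 4 (Tm7sf2 5.36 h).

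Replicate numbers did not pair the samples. Deviations from group means of samples with the same number correlated at a mean r of 0.00533 (364 pairs, from -0.373 to 0.304), and those with different numbers at -0.00174 (1092 pairs). With the replicate number as a block, the member counts were 7 under DRF, 4 under NRF, 6 for the rhythm difference, 4 feeding-aligned, 8 and 13 same-ZT pairs and 2 and 3 aligned pairs, higher and lower. The calls of Cyp51 at ZT20 (adjusted p = 0.0522) and of Msmo1 at DRF ZT20 against NRF ZT8 (adjusted p = 0.0539) were then lost, and Nsdhl at ZT0 was gained (adjusted p = 0.0466).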
